A study of Rattus norvegicus with 30 samples.

Results

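The response of cultured rat kidney cells to the first 3 h of hypertonicity was described across 14506 genes. Primary cells of the inner medullary collecting duct, the last segment of the tubule, where the final urine is concentrated, were grown at 300 mosmol/kg, close to the osmolality of blood plasma. Of 30 expression arrays in the series, 6 were compared, chosen by their titles: 3 arrays of cells moved to 600 mosmol/kg for 3 h and 3 arrays of unchallenged cells kept at 300 mosmol/kg, called steady 300 here. The 3 arrays at 12 h after the same step are set beside them, and the times 24 h and 48 h are given for single genes. The treatment field of all samples names 5 µM cyclosporin A, an inhibitor of the phosphatase calcineurin, but no title does, so it is not settled whether all, some or none of the compared cultures held the drug. Nor do the labels tell if the 3 replicates of a group were separate cultures or animals. The p-values and standard errors (SE) rest on a spread pooled within groups over all 30 arrays, part or all of which may therefore be technical. Replicates varied more at 3 h than in steady 300. The pooled spread does not carry that difference, so SE and p can be too small at 3 h.

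Cells placed in a hypertonic medium shrink at once and then regain volume by taking up ions. Over hours they replace part of these ions with compatible organic osmolytes, such as sorbitol and myo-inositol, whose carriers and enzymes are induced by the transcription factor NFAT5. Osmotic shrinkage also activates stress kinases and, in many cell types, immediate early genes, whose transcription needs no new protein, and it slows transcription, translation and the cell cycle.

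The values are log2 levels, so a change of 1 is 2-fold, and each change is that of the 3 h cells over steady 300. At 3 h, 1759 genes (12.1%) were higher and 4282 (29.5%) were lower at an adjusted p under 0.05 (limma, Benjamini-Hochberg over all 14506 genes). Changes of at least 2-fold were found in 66 genes that were higher (0.455%) and 214 that were lower (1.48%). The levels of 2250 genes (15.5%) were higher in each 3 h array than in each steady 300 array, and those of 4479 (30.9%) were lower in each. The lower genes made up 70.9% of the calls, 58.3% after quantile normalization (15.2% of all genes higher, 21.2% lower) and 59.1% after cyclic loess (14.4% higher, 20.8% lower). In a fit of the 6 compared arrays alone, 1142 genes were higher and 3328 lower.

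The 3 h arrays covered a narrower range of signal than those of steady 300. Regressed on the mean of all 30 arrays, they had slopes of 0.934, 0.956 and 0.973, against 1.009, 1.011 and 1.008 in steady 300, and the other 24 arrays lay between 0.974 and 1.025. The interquartile range over genes was 3.38 ± 0.11 at 3 h and 3.69 ± 0.01 in steady 300 (SD, n = 3 each). From the 5th to the 95th percentile the range was 6.96 ± 0.14 at 3 h and 7.24 ± 0.02 in steady 300. On this measure the other 24 arrays lay between 6.99 and 7.27, so 3 h replicate 3 (7.12) was not apart from them. At 12 h, replicates 1 and 3 were narrower than that array (7.05 and 7.10). The groups at 3 h and in steady 300 did not overlap in any of these measures. The exact two-sided permutation p was 0.1 for each, the smallest that 3 against 3 arrays allow. Replicates also varied more at 3 h, with a median gene SD of 0.155 against 0.0751 in steady 300, and replicate 3 stood apart from the other two arrays at 3 h. Each gene group below is therefore given with its count after cyclic loess, which aligns dim and bright genes between arrays. The part of the narrower range in the direction of weak changes was not tested beyond these alternatives.

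Genes were split into 3 equal groups by their mean over the 30 arrays. Among the dimmest, 675 of 4835 (14%) were higher at 3 h and 179 (3.7%) lower, with a median change of 0.09. In the middle group 660 of 4835 (13.7%) were higher and 1584 (32.8%) lower, with a median of −0.09. Among the brightest, 424 of 4836 (8.77%) were higher and 2519 (52.1%) lower, with a median of −0.23. The lower genes made up 20.96% of the calls in the dimmest group and 85.6% in the brightest. After cyclic loess the share of lower calls was 50% in the dimmest group, 63.8% in the middle and 57.5% in the brightest. The large changes moved too: among the brightest, 23 genes were at least 2-fold higher and 75 lower as deposited, against 44 higher and 29 lower after cyclic loess. In the middle group, 27 genes were at least 2-fold higher and 121 lower as deposited, against 32 higher and 104 lower after cyclic loess.

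**Figure D1:**
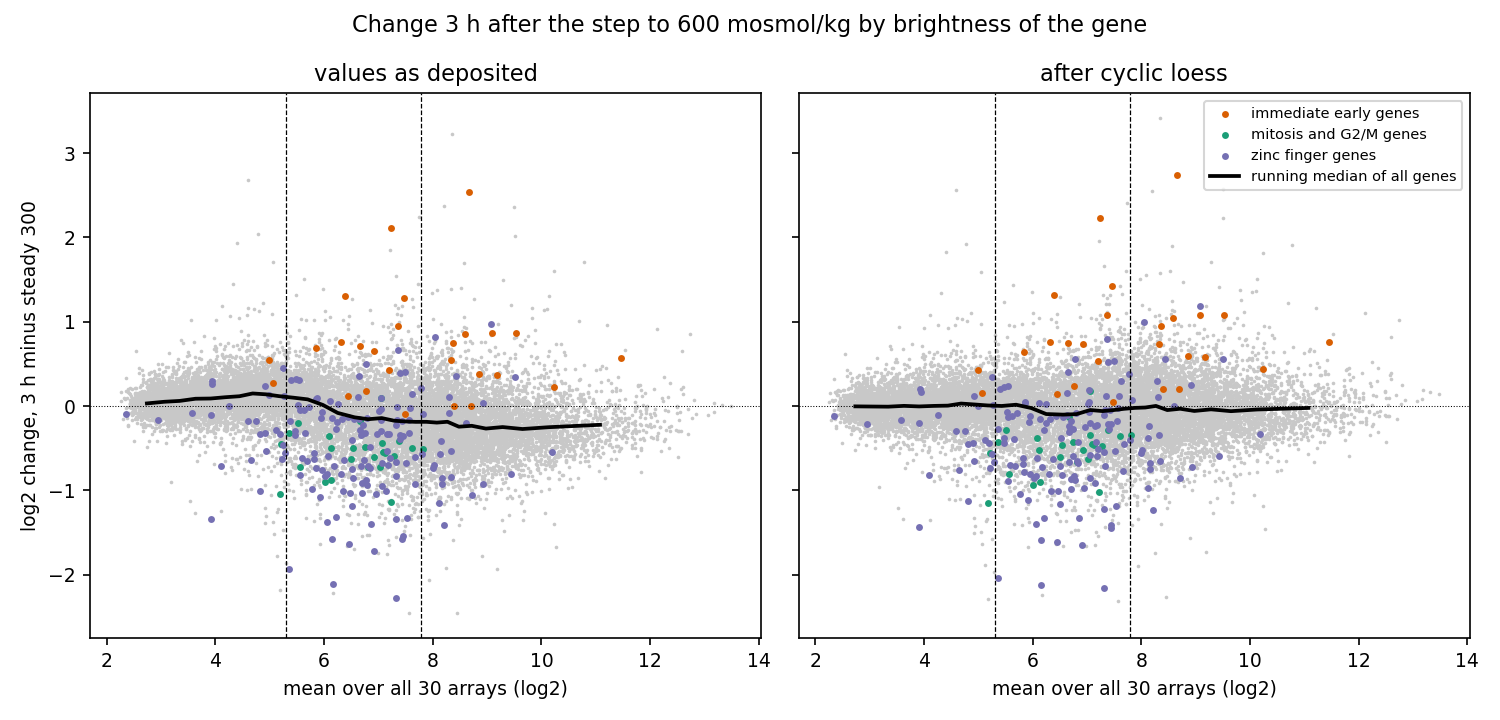
Log2 change at 3 h over steady 300 (vertical axis) against the mean of the gene over all 30 arrays (horizontal axis, log2), as deposited on the left and after cyclic loess on the right. Each grey point is 1 of 14506 genes, coloured points are members of 3 gene lists, the black line is a running median, and dashed lines part the 3 brightness groups. As deposited the median of the brightest group is −0.23, while the immediate early genes lie mostly above the line and the mitotic and zinc finger genes mostly below it in both panels.

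The largest increase was that of Rrad, a GTPase of the RGK family that inhibits calcium channels. Its level was 9.36, 9.31 and 8.95 at 3 h, against 6.22, 5.89 and 5.84 in steady 300, a change of 3.22 ± 0.11 (SE) or 9.33-fold (adjusted p = 4.11e-18). All 3 h arrays lay above all steady 300 arrays, and Rrad remained higher at 12 h (2.04 ± 0.11), less so than at 3 h (difference 1.18, adjusted p = 2.72e-09).

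Pygm, the muscle form of glycogen phosphorylase, which releases glucose from glycogen, was a dim gene that rose 6.41-fold. Its level was 6.65, 6.82 and 6.89 at 3 h, against 4.19, 4.08 and 4.05 in steady 300 (change 2.68 ± 0.10, adjusted p = 5.19e-18). Its change was 2.56 after cyclic loess, and it had shrunk to 1.01 ± 0.10 at 12 h. Ampd1, the AMP deaminase of muscle, rose 3.82-fold from the same dim range, with levels of 5.69, 6.02 and 5.64 at 3 h and 3.67, 3.70 and 4.17 in steady 300. Of 22 measured glycogen and glycolysis genes, 6 were higher and 3 lower at 3 h, where 12.1% and 29.5% of all genes were. Their median was 0.03 (all genes −0.04), and 13 were higher and 1 lower after cyclic loess. Pfkl, the liver form of phosphofructokinase, rose by 0.85 ± 0.09, and Gys1, the glycogen synthase of muscle, by 0.50 ± 0.09.

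Other genes among the 10 largest increases were Mmp13, a collagenase (5.14-fold), Cxcl10, a chemokine that attracts T cells (4.75-fold), Stpg3 (4.12-fold) and Ppp1r10, a nuclear regulatory subunit of protein phosphatase 1 (4.06-fold). Ppp1r10 had levels of 10.68, 10.83 and 11.34 at 3 h, against 8.90, 8.98 and 8.91 in steady 300. Ppp1r15a, another regulatory subunit of that phosphatase, which directs it to the initiation factor eIF2α, had levels of 9.79, 9.78 and 10.17 at 3 h, against 8.15, 8.30 and 8.19 in steady 300 (3.24-fold, adjusted p = 3.30e-14). The groups did not overlap for either gene. Both were still higher at 12 h, Ppp1r10 by 1.18 ± 0.11 and Ppp1r15a by 0.85 ± 0.09, and for both the change at 3 h exceeded that at 12 h (adjusted p = 2.61e-07 and 1.24e-08).

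Among immediate early genes, 20 of 26 measured members were higher at 3 h and 0 were lower, with a median change of 0.61 against −0.04 over all genes. The members lay across the brightness range: 9 of 12 in the middle group and 10 of 12 in the brightest group were higher, where 13.7% and 8.77% of all genes were. Relative to the mean of steady 300, the median of the 26 members was 0.52, 0.44 and 0.72 in the 3 arrays at 3 h and between −0.04 and 0.02 in the 3 steady 300 arrays. The count was 21 after quantile normalization or cyclic loess.

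Egr1, a zinc finger transcription factor induced by growth and stress signals, had levels of 9.93, 10.13 and 11.17 at 3 h, against 7.79, 8.05 and 7.78 in steady 300. The groups did not overlap, although replicate 3 stood about 1 unit above the other two (change 2.54 ± 0.17, adjusted p = 7.69e-12). Csrnp1, a nuclear protein of the AXUD1 family, had levels of 8.73, 8.58 and 8.80 at 3 h, against 6.77, 6.50 and 6.48 in steady 300 (4.34-fold). Klf4, a Krüppel-like factor of epithelia, had levels of 8.27, 8.29 and 8.27 at 3 h, against 6.98, 6.99 and 7.0 in steady 300 (2.44-fold), and its change was 1.30 ± 0.09 at 12 h. Atf3, a stress-induced repressor of the ATF/CREB family, had levels of 9.84, 9.73 and 9.78 at 3 h, against 8.94, 8.91 and 8.95 in steady 300. Atf3 rose by 0.85 ± 0.07 at 3 h, and its change of −0.15 ± 0.07 at 12 h did not pass the test.

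The partners of the AP-1 transcription factor did not change alike. Fos had levels of 7.13, 7.08 and 7.27 at 3 h, against 6.49, 6.46 and 6.56 in steady 300, and rose by 0.66 ± 0.11. Jun had levels of 8.86, 8.92 and 8.92 at 3 h, against 8.91, 8.94 and 8.88 in steady 300. The Jun groups overlapped (change −0.01 ± 0.08, adjusted p = 0.965), and after cyclic loess its change was 0.20 (adjusted p = 0.0382). Sertad1, a transcriptional regulator that binds the cyclin-dependent kinase CDK4, was no member of the list and rose 3.61-fold, with levels of 8.48, 8.60 and 8.12 at 3 h and 6.63, 6.55 and 6.47 in steady 300.

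Promoters of 16 of the 26 measured members were found in the RefSeq promoter table of the GRCr8 assembly, each from 250 bases before to 50 after the start of the gene. They were searched on both strands for the CArG box, the sequence bound by serum response factor, the cAMP response element TGACGTCA, the AP-1 site (TGACTCA or TGAGTCA) and the tonicity element, to which NFAT5 binds. The tonicity element can overlap the other patterns, which cannot overlap each other. A CArG box was found in 4 of the 16 promoters (25%), those of Egr1, Egr2, Klf6 and Srf, and in 153 of 11950 promoters of measured genes (1.28%). The cAMP response element was found in 3 of the 16 and in 2.46% of the promoters of measured genes. The AP-1 site and the tonicity element were in 0 of the 16, against 3.82% and 4.42% of the promoters of measured genes. The 4 promoters with a CArG box are shown because their genes moved differently. Egr2, Klf6 and Srf are named here for that match and not for their change, while Egr1 was also described above for its change. CArG boxes are in capitals, and they begin at −105 and −83 from the start in Egr1, at −83 in Egr2, at −201 in Klf6 and at −81 and −61 in Srf. The windows are chr18:26736828-26737127 (plus strand) for Egr1, chr20:21054392-21054691 (minus strand) for Egr2, chr17:69458429-69458728 (minus strand) for Klf6 and chr9:21923826-21924125 (plus strand) for Srf.
Egr1: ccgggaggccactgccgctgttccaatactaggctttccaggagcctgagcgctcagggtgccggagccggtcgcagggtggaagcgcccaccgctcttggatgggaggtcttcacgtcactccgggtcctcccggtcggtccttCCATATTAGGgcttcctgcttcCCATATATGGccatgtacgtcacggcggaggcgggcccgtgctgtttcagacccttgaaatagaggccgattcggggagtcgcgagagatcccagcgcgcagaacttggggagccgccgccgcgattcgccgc
Egr2: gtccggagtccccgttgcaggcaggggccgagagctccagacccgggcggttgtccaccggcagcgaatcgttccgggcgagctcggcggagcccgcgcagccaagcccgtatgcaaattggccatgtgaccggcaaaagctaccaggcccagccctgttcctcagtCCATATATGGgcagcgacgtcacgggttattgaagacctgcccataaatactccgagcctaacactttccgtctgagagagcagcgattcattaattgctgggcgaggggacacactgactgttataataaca
Klf6: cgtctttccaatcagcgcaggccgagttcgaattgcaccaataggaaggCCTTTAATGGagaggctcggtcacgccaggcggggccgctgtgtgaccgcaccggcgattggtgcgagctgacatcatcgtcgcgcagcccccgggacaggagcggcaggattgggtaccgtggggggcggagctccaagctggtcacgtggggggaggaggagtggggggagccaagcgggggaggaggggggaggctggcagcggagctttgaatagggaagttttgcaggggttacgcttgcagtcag
Srf: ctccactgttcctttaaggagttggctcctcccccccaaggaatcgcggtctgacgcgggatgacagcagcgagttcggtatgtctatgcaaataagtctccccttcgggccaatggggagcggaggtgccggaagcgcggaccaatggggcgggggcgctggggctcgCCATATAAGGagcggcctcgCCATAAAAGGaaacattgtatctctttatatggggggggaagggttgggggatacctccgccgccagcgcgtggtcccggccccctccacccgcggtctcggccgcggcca
Beside the 2.54 of Egr1, Klf6, a Krüppel-like factor, rose by 0.37 (adjusted p = 1.25e-04), Egr2 changed by 0.27 (adjusted p = 0.0542) and Srf, serum response factor itself, by 0.01 (adjusted p = 0.969). The match is a description of these letters, and binding was not measured.

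Phosphatases and inhibitors of the MAP kinase cascades are induced by the cascades they switch off. Of 16 measured, 6 (37.5%) were higher, against 12.1% of all genes. Lower were 5 (31.25%), near the 29.5% of all genes, and the median was −0.05. Dusp6, the cytoplasmic phosphatase of ERK, had levels of 10.17, 10.24 and 10.58 at 3 h, against 9.43, 9.56 and 9.31 in steady 300 (change 0.90 ± 0.10). Spry2, an inhibitor of receptor tyrosine kinase signalling, rose by 0.79 ± 0.11 and Dusp1 by 0.64 ± 0.09. Dusp14 had levels of 7.34, 7.48 and 7.65 at 3 h, against 8.65, 8.66 and 8.66 in steady 300 (change −1.17 ± 0.12), and Dusp7 changed by −0.87 ± 0.11. None of these 5 genes overlapped between the groups, and the counts of the list were the same after cyclic loess.

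**Figure D2:**
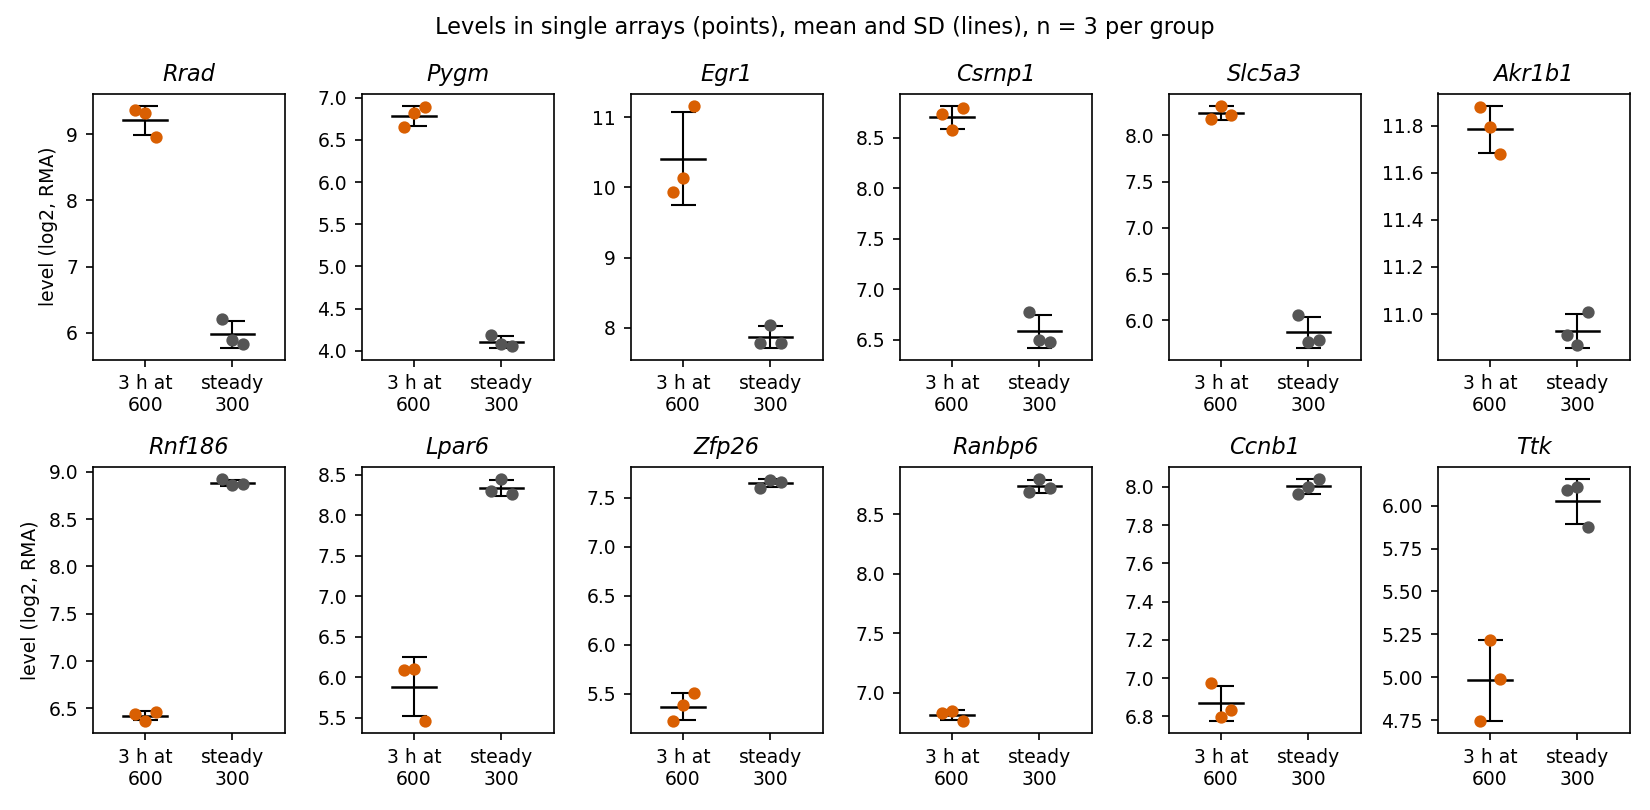
Deposited log2 levels (vertical axes, each with its own range) of 12 genes in the 3 arrays at 3 h (orange, left) and the 3 arrays of steady 300 (grey, right), with mean and SD as lines. The upper row holds genes that rose, such as Rrad (9.33-fold), and the lower row genes that fell, such as Rnf186 (5.49-fold lower), with no overlap of the groups in any panel.

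Among tonicity-responsive and osmolyte genes, 7 of 14 measured members were higher and 1 was lower at 3 h, where 12.1% and 29.5% of all genes were. Their median change was 0.26. The list also held Nfat5 itself and the chaperone gene Hspa4l. After cyclic loess 9 were higher and 1 lower. Of the 10 members in the brightest group 6 were higher, where 8.77% of all genes were. Slc5a3, the sodium-coupled myo-inositol transporter, had levels of 8.17, 8.32 and 8.22 at 3 h, against 6.06, 5.76 and 5.79 in steady 300 (5.16-fold), and this change exceeded the one at 12 h (difference 0.38, adjusted p = 9.87e-04). Chka, the choline kinase of the Kennedy pathway, had levels of 8.70, 8.80 and 8.92 at 3 h, against 7.32, 7.40 and 7.34 in steady 300 (2.73-fold), and its change was 0.48 ± 0.08 at 12 h. The groups did not overlap for either gene.

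Akr1b1, the aldose reductase that makes sorbitol, had levels of 11.88, 11.79 and 11.68 at 3 h, against 10.91, 10.87 and 11.01 in steady 300. It rose by 0.86 ± 0.06 at 3 h and by 2.39 ± 0.06 at 12 h, and these changes differed (difference −1.53, adjusted p = 1.32e-16). Hspa4l, a chaperone of the HSP110 family, followed the same order, with 0.66 ± 0.10 at 3 h and 3.16 ± 0.10 at 12 h. Nfat5 rose by 0.61 ± 0.11, with levels of 9.25, 9.33 and 9.70 at 3 h and 8.70, 8.87 and 8.86 in steady 300. The taurine transporter gene Slc6a6 had levels of 10.68, 10.58 and 10.65 at 3 h, against 10.71, 10.68 and 10.72 in steady 300 (change −0.07 ± 0.06, adjusted p = 0.388). After cyclic loess Slc6a6 had the opposite sign (0.14, adjusted p = 0.0814). Impa1, which frees inositol from its phosphate, was the member that fell, by 0.65 ± 0.11.

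Chaperones and heat shock factors showed 4 of 22 members higher and 3 lower at 3 h, where 12.1% and 29.5% of all genes were, and 8 higher and 1 lower after cyclic loess. At 12 h 9 were higher and 4 lower, where 11.9% and 22.6% of all genes were. Hspa2 rose by 0.67 ± 0.09 and Hsph1 by 0.60 ± 0.08, and both changes were smaller than those at 12 h (1.5 and 1.64). Hsf2, a heat shock factor, had levels of 8.14, 8.37 and 8.61 at 3 h, against 9.24, 9.33 and 9.19 in steady 300, a change of −0.88 ± 0.13 with no overlap. Its change at 12 h was −0.12 ± 0.13, which did not pass the test.

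Of 34 gene lists, that of mitosis and G2/M genes had the highest share of lower members. Of 25 measured members, 21 (84%) were lower at 3 h and 0 were higher, with a median change of −0.51 against −0.04 over all genes. The count was 21 after quantile normalization and after cyclic loess, and 18 of the 22 members in the middle group were lower, where 32.8% of all genes were. The list median was −0.60, −0.44 and −0.55 in the 3 arrays at 3 h, all apart from the steady 300 arrays (−0.0012 to 0.0037). At 12 h, 16 members were lower, where 22.6% of all genes were.

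Ccnb1, the mitotic cyclin B1, had levels of 6.97, 6.80 and 6.83 at 3 h, against 7.96, 8.0 and 8.04 in steady 300 (change −1.13 ± 0.13, 2.20-fold lower). Ttk, a kinase of the spindle checkpoint, had levels of 4.75, 5.22 and 4.99 at 3 h, against 6.09, 6.11 and 5.88 in steady 300 (2.06-fold lower). Bub1, another kinase of that checkpoint, had levels of 5.49, 6.09 and 5.62 at 3 h, against 6.67, 6.64 and 6.60 in steady 300. None of the 3 genes overlapped between the groups. For Ttk the changes at 3 h and 12 h did not differ beyond the error (−1.04 ± 0.10 and −0.86 ± 0.10, adjusted p of the difference 0.170), and at 48 h its change was −2.10 ± 0.10. The arrays held whole cultures, in which fewer dividing cells and less RNA per cell cannot be told apart.

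Genes of DNA replication were less uniform, with 2 of 23 higher and 9 lower, where 12.1% and 29.5% of all genes were. After cyclic loess 2 were higher and 7 lower. Prim1, a subunit of the primase, had levels of 6.97, 6.80 and 7.03 at 3 h, against 8.0, 8.03 and 7.89 in steady 300 (change −1.04 ± 0.11). Cdc6, which loads the replicative helicase, rose by 0.54 ± 0.12 at 3 h and fell by 0.33 ± 0.12 at 12 h. Of 20 p53 target and growth arrest genes, 1 was higher, Gadd45b, and 9 (45%) were lower, against 29.5% of all genes. In the brightest group 6 of 16 were lower, against 52.1% of all genes there. Gadd45b had levels of 11.08, 11.17 and 11.20 at 3 h, against 9.85, 9.78 and 9.92 in steady 300 (2.46-fold). Mdm2, the ubiquitin ligase of p53, had levels of 8.90, 8.78 and 8.98 at 3 h, against 9.67, 9.67 and 9.68 in steady 300, a change of −0.78 ± 0.12, and it was 0.67 ± 0.12 above steady 300 at 12 h. After cyclic loess 7 genes of the p53 list were higher and 8 lower.

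Many of the large decreases were in zinc finger genes. The list held all 160 measured genes whose symbols begin with Zfp, Znf, Zkscan or Zscan, most of them C2H2 transcription factors. Of these, 91 were lower at 3 h (29.5% of all genes were) and 12 were higher, with a median change of −0.35. Of the 91, 25 were at least 2-fold lower. In the middle group, where most members lay, 66 of 111 were lower, against 32.8% of all genes there. In the dimmest group 10 of 25 were lower, against 3.7%, and in the brightest group 15 of 24, against 52.1%. The count was 86 after quantile normalization and 89 after cyclic loess. The median over the list was −0.38, −0.43 and −0.45 in the 3 arrays at 3 h, and between −0.01 and 0.02 in the steady 300 arrays.

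Zfp26 had levels of 5.22, 5.38 and 5.51 at 3 h, against 7.60, 7.69 and 7.66 in steady 300 (change −2.28 ± 0.11, 4.86-fold lower, adjusted p = 3.58e-15). Zfp867 had levels of 4.86, 4.63 and 4.77 at 3 h, against 6.93, 7.01 and 6.66 in steady 300 (4.32-fold lower). Zfp35 had levels of 6.13, 6.25 and 6.13 at 3 h, against 7.71, 7.79 and 7.63 in steady 300 (2.91-fold lower). In each of these genes all 3 h arrays lay below all steady 300 arrays. Zfp799 (3.83-fold lower) and Zfp189 (2.51-fold lower) also fell without overlap. The members that rose included Zfp36 and Zfp36l1, which carry CCCH fingers and destabilise mRNA, and Zfp598, a ubiquitin ligase that acts on stalled ribosomes. Zfp36 had levels of 9.51, 9.60 and 10.80 at 3 h, against 8.96, 9.11 and 8.93 in steady 300, so that replicate 3 stood apart (change 0.97 ± 0.18, and 0.56 without that array). Zfp36l1 rose by 0.34, and by 0.18 without 3 h replicate 3.

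At 12 h the zinc finger list of 160 genes held 24 higher and 23 lower members, where 11.9% and 22.6% of all genes were. Its median was −0.02. Of the 91 members lower at 3 h, 80 were lower at 3 h than at 12 h, 0 were higher and 11 did not differ beyond the error, where 3352 of all genes (23.1%) were lower at 3 h than at 12 h. These 91 were chosen on the 3 h arrays, which both comparisons share, so the count is a description. Zfp26 changed by −0.17 ± 0.11 at 12 h, with a difference of −2.11 between the times (adjusted p = 1.05e-14), and Zfp35 by 0.21 ± 0.10.

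**Figure D3:**
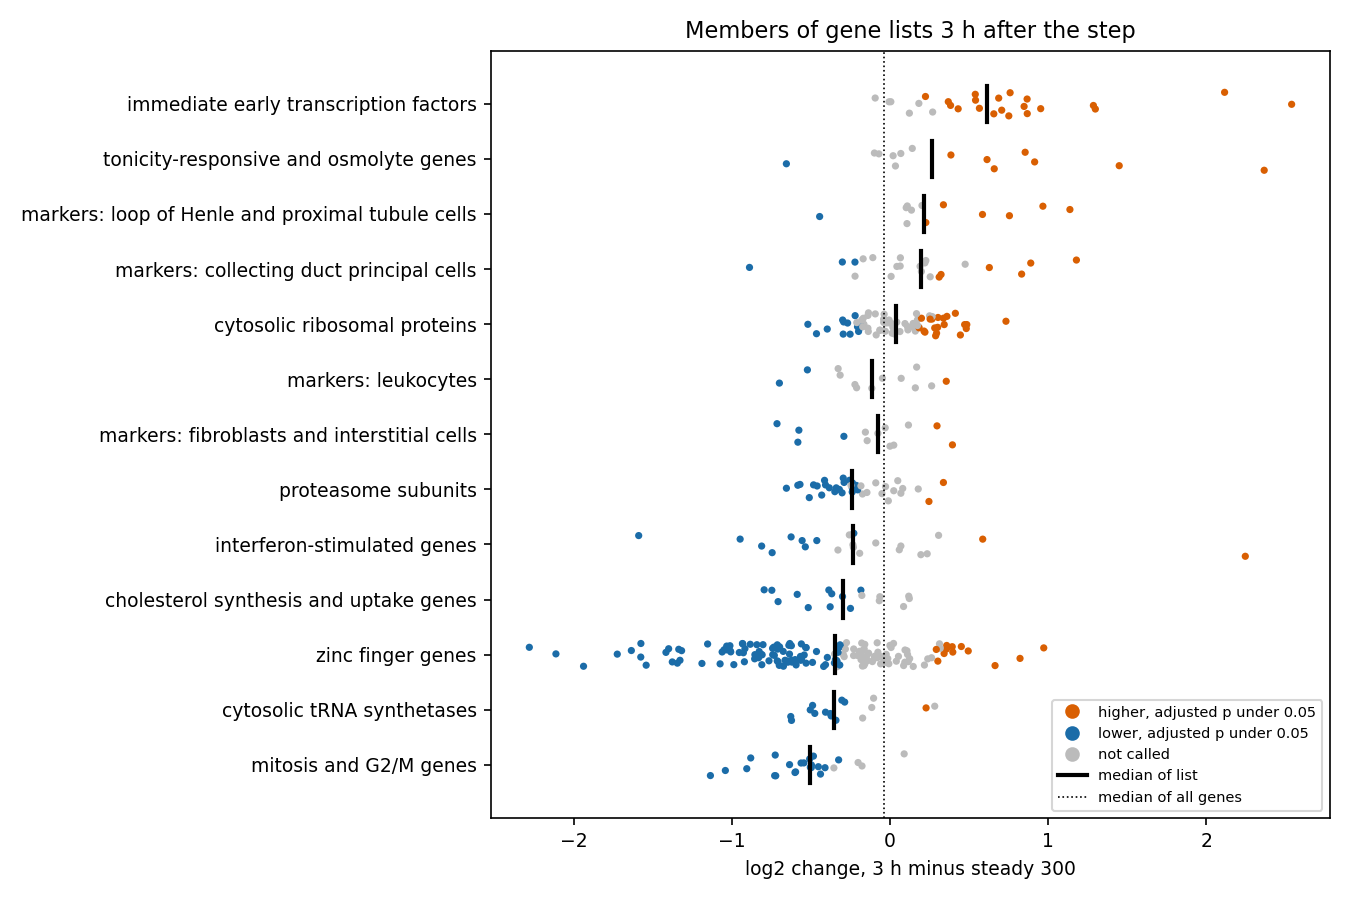
Log2 change at 3 h over steady 300 (horizontal axis) of every measured member of 13 gene lists. Orange points were higher, blue points lower and grey points not called at an adjusted p under 0.05. Thick bars mark list medians and the dotted line the median of all genes (−0.04). The immediate early genes lie furthest right (median 0.61) and the mitosis genes furthest left (−0.51), while the zinc finger genes run down to −2.28.

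Outside the zinc finger genes the largest decreases were those of Rnf186, a RING finger ubiquitin ligase, and Lpar6, a receptor for lysophosphatidic acid. Rnf186 had levels of 6.45, 6.37 and 6.46 at 3 h, against 8.92, 8.86 and 8.87 in steady 300 (5.49-fold lower), and it was still lower at 48 h (−1.42 ± 0.09). Lpar6 had levels of 6.09, 6.10 and 5.46 at 3 h, against 8.30, 8.44 and 8.26 in steady 300 (5.47-fold lower), and its change at 48 h was −0.23 ± 0.15. Ranbp6, a protein of the importin family, had levels of 6.83, 6.85 and 6.76 at 3 h, against 8.69, 8.80 and 8.73 in steady 300 (3.80-fold lower). Its change at 12 h was −0.28 ± 0.12 (adjusted p = 0.0616). Olr1, a receptor for oxidised low-density lipoprotein, fell 4.67-fold, Vof16 4.54-fold, Ankrd49 4.18-fold and the C-type lectin gene Clec2g 3.83-fold, each without overlap of the groups.

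Of 15 receptors for lysophospholipids and prostaglandins, 3 were higher and 7 lower (median −0.26), where 12.1% and 29.5% of all genes were. The counts were the same after cyclic loess. Lpar1, like Lpar6 a lysophosphatidic acid receptor, had levels of 6.30, 6.49 and 6.13 at 3 h, against 7.05, 6.77 and 7.06 in steady 300, a change of −0.65 ± 0.11. At 12 h Lpar1 was higher than in steady 300 by 0.97 ± 0.11. Ptger1 and Ptger3, receptors for prostaglandin E2, rose by 0.68 ± 0.12 and 0.48 ± 0.09.

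Many genes of basal functions had small decreases, and their counts depended on the scaling. Most lay in the brightest group, where 52.1% of all genes were lower. There 21 of 34 proteasome subunits, 14 of 28 subunits of mitochondrial complex I, 9 of 13 cholesterol genes and 11 of 16 tRNA synthetases were lower. Of 37 proteasome subunits 22 were lower and 2 higher as deposited, and 6 were lower and 4 higher after cyclic loess. Of 16 cytosolic tRNA synthetases 11 were lower and 1 higher, and 7 were lower and 2 higher after cyclic loess. Of 17 cholesterol synthesis and uptake genes 11 were lower and 0 higher, and 8 were lower and 2 higher after cyclic loess. Fdft1, the squalene synthase, kept its direction (−0.80 ± 0.09, and −0.58 after cyclic loess), as did Sqle, the squalene epoxidase (−0.75 ± 0.09, and −0.54). Of 33 subunits of mitochondrial complex I, 15 were lower and 5 higher, against 7 of each after cyclic loess. Cytosolic ribosomal proteins, 69 of 72 of them in the brightest group, had 20 members higher and 12 lower as deposited, and 37 higher and 2 lower after cyclic loess. Their median was 0.04 as deposited and 0.23 after cyclic loess, so the size of their shift depended on the scaling.

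Regulators of RNA stability and processing also moved both ways. The 17 mRNA decay and deadenylation genes lay in the brightest group, where 8.77% of all genes were higher and 52.1% lower. Of them 4 were higher and 8 lower (7 and 6 after cyclic loess), and 0 of those 8 were lower at 12 h, when 22.6% of all genes were. Cnot6l, a catalytic subunit of the deadenylase complex, had levels of 8.09, 8.19 and 8.54 at 3 h, against 9.02, 9.06 and 9.03 in steady 300 (change −0.76 ± 0.10). Of 24 splicing factors and CLK kinases 9 were lower and 3 higher, and 7 were lower and 4 higher after cyclic loess. In the brightest group 9 of 23 were lower, against 52.1% of all genes there. Clk1 rose by 0.51 ± 0.12 while its paralogue Clk2 fell by 0.50 ± 0.08, and the cold-inducible RNA-binding proteins Cirbp and Rbm3 fell by 0.75 ± 0.07 and 0.86 ± 0.11. Of 23 Mediator subunits, 10 were lower and 1 higher, and 5 were lower and 4 higher after cyclic loess. In the brightest group 6 of 14 subunits were lower, and in the middle 4 of 8, where 52.1% and 32.8% of all genes were. Med17, in the head of that complex, had levels of 7.10, 7.12 and 6.94 at 3 h, against 7.94, 7.82 and 7.89 in steady 300 (change −0.83 ± 0.08), and a change of 0.02 ± 0.08 at 12 h.

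Cytokine genes split. Il11 had levels of 9.97, 9.94 and 10.07 at 3 h, against 8.64, 8.59 and 8.75 in steady 300 (2.53-fold), and its change at 12 h, −0.18 ± 0.08, did not pass the test. Il6 had levels of 5.54, 5.77 and 5.73 at 3 h, against 7.45, 7.44 and 7.48 in steady 300 (3.43-fold lower), and it stayed lower at 48 h (−2.36 ± 0.16). Of 22 cytokine and NF-kB target genes, 5 were higher, Il11 among them, and 8 lower, Il6, Il1a, Il1b and Ccl7 among them, where 12.1% and 29.5% of all genes were. After cyclic loess the balance of the list turned, with 10 higher and 6 lower. Of 22 interferon-stimulated genes 2 (9.09%) were higher and 9 (40.9%) lower, with a median of −0.23, and 6 were higher and 7 lower after cyclic loess. The highest change, that of Cxcl10, stood beside a decrease of Irf1. Irf1, an interferon regulatory factor, had levels of 6.97, 6.88 and 6.54 at 3 h, against 8.40, 8.32 and 8.43 in steady 300 (3.01-fold lower). Cxcl10 had levels of 7.97, 7.66 and 8.07 at 3 h, against 5.85, 5.62 and 5.49 in steady 300.

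Feedback genes of developmental signalling showed 4 of 19 members higher and 4 lower, where 12.1% and 29.5% of all genes were. After cyclic loess 3 were higher and 3 lower. Smad7, the inhibitory SMAD of the TGF-β pathway, had levels of 9.11, 9.21 and 9.66 at 3 h, against 7.90, 8.01 and 7.93 in steady 300 (2.61-fold). Nrarp, a negative regulator of Notch signalling, had levels of 6.82, 6.97 and 7.10 at 3 h, against 8.06, 7.99 and 7.98 in steady 300 (2.07-fold lower). Neither gene overlapped between the groups. Of 13 matricellular and YAP target genes 4 were higher and 4 (30.8%) lower, the latter near the 29.5% of all genes. After cyclic loess 5 were higher and 1 lower. Of 15 circadian clock genes 1 was higher and 5 (33.3%) lower, near the 29.5% of all genes, and 3 of each after cyclic loess. The lowest change in that list was that of Bhlhe41, a repressor of the clock (−1.25 ± 0.11).

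Of the cell volume and ion carrier genes, 7 of 19 were higher and 4 lower, where 12.1% and 29.5% of all genes were. After cyclic loess 9 were higher and 2 lower. Fxyd4, a regulator of the sodium pump in collecting duct, had levels of 7.47, 7.73 and 7.01 at 3 h, against 6.94, 6.26 and 6.34 in steady 300, and its change of 0.89 ± 0.21 at 3 h stood beside −1.15 ± 0.21 at 12 h. The volume-regulated anion channel subunit gene Lrrc8e changed by −0.63 ± 0.12. Amino acid transporters had 8 of 17 members lower and 0 higher, but 3 of each after cyclic loess. In the brightest group 7 of 12 were lower, against 52.1% of all genes there. Slc38a2, the SNAT2 carrier, counted with the tonicity-responsive and osmolyte genes, had levels of 12.52, 12.46 and 12.83 at 3 h, against 11.67, 11.74 and 11.65 in steady 300 (change 0.92 ± 0.08). Slc7a11, the cystine carrier, fell by 0.51 ± 0.12 at 3 h and was 0.64 ± 0.12 above steady 300 at 12 h. Of 20 genes of the unfolded protein and integrated stress response 3 were higher and 9 lower, and 7 and 6 after cyclic loess. In the brightest group 7 of 14 were lower, near the 52.1% of all genes there. Xbp1, a transcription factor of that response, changed by −0.98 ± 0.08. Of 15 antioxidant genes 1 was higher and 8 lower, and 4 were higher and 6 lower after cyclic loess. In the brightest group 7 of 13 were lower, also near the share of all genes there.

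Markers were set beside the label of the cells, which they do not settle. The 22 principal cell markers had list means of 6.79 to 6.91 at 3 h and 6.63 to 6.71 in steady 300. Of these markers 4 lay in the dimmest, 8 in the middle and 10 in the brightest group. Among the brightest, the keratin genes Krt8 and Krt18 had levels between 11.7 and 12.3 in all 6 arrays. Both were called lower at 3 h (−0.30 and −0.22). After cyclic loess neither passed the test (−0.11, adjusted p = 0.222, and −0.03, adjusted p = 0.812). Aqp2, the vasopressin-regulated water channel, had levels between 6.0 and 6.21 at 3 h and between 5.09 and 6.07 in steady 300. The Aqp2 groups overlapped (change 0.48 ± 0.20, adjusted p = 0.0563), and without steady 300 replicate 1 its change was 0.71 (adjusted p = 0.00741) and without replicate 2 of that group 0.22 (adjusted p = 0.421). After cyclic loess the Aqp2 change was 0.66 (adjusted p = 0.0137). Levels of different probe sets do not show which gene is more abundant. Of the 22 markers 6 were higher at 3 h and 3 lower, where 12.1% and 29.5% of all genes were. After cyclic loess 7 were higher and 1 lower. Aqp4, a basolateral water channel, had levels of 7.85, 7.41 and 7.51 at 3 h, against 6.68, 6.42 and 6.13 in steady 300 (2.26-fold), and its change at 12 h was −0.82 ± 0.14. Aqp3, the other basolateral water channel, rose by 0.83 ± 0.17, and Slc14a2, which encodes urea transporters, by 0.63 ± 0.13. Elf3, an epithelial transcription factor, fell by 0.89 ± 0.07.

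Markers of other cells were described in the same way, and their presence was not tested. In the dimmest group lay 5 of 12 loop of Henle and proximal tubule markers and 7 of 11 intercalated cell markers. So did 3 of 13 fibroblast and 1 of 13 leukocyte markers. Of 12 loop of Henle and proximal tubule markers 6 were higher and 1 lower (4 and 1 after cyclic loess), with list means of 6.13 to 6.21 at 3 h and 5.76 to 5.85 in steady 300. Aqp1, the water channel of the thin limb and proximal tubule, rose by 1.14 ± 0.13, and Cldn10 by 0.97 ± 0.10. Of 13 fibroblast markers 2 (15.4%) were higher and 4 (30.8%) lower, near the shares of all genes (2 and 3 after cyclic loess). Their list means were 9.19 to 9.42 at 3 h and 9.41 to 9.43 in steady 300. Of 13 leukocyte markers 1 was higher and 2 lower (8.42 to 8.66 at 3 h and 8.60 to 8.67 in steady 300), of 10 endothelial markers 2 were higher and 2 lower, and of 11 intercalated cell markers 0 were higher and 1 lower. After cyclic loess the counts were 2 higher and 2 lower for leukocytes, 2 and 2 for endothelium, and 1 and 1 for intercalated cells. The list means of fibroblast and leukocyte markers overlapped between the groups. The part of such cells in any change was not tested.

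Compared with each other, 2587 genes (17.8%) were higher and 3352 (23.1%) lower at 3 h than at 12 h. Of the 66 genes at least 2-fold higher at 3 h, 52 were higher at 3 h than at 12 h, 5 were lower and 9 did not differ beyond the error, with median changes over steady 300 of 1.21 at 3 h, 0.60 at 12 h, 0.25 at 24 h and 0.16 at 48 h. Of the 214 genes at least 2-fold lower at 3 h, 161 were lower at 3 h than at 12 h, 14 were higher and 39 did not differ beyond the error, with medians of −1.18, −0.39, −0.13 and −0.16. Both sets were chosen on the 3 h arrays, which these comparisons share, so the counts are descriptions. At 12 h, when 11.9% of all genes were higher than in steady 300 and 22.6% lower, immediate early genes had 10 members higher and 3 lower. The tonicity-responsive and osmolyte genes had 10 higher and 1 lower.

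The 10 genes with the largest differences between the times included the following. Prss35, a serine protease-like protein, had levels of 6.83, 7.31 and 7.25 at 3 h, against 5.63, 5.66 and 5.62 in steady 300 (2.82-fold), and its change was 4.82 ± 0.11 at 12 h. Slc38a4, an amino acid carrier, changed by −0.03 ± 0.09 at 3 h (adjusted p = 0.841) and by 2.19 ± 0.09 at 12 h. Tmem45b changed by −0.05 ± 0.11 at 3 h (adjusted p = 0.784) and by −2.67 ± 0.11 at 12 h, and Vtcn1, an inhibitory ligand of T cells, by −0.83 ± 0.07 and −3.04 ± 0.07.

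**Figure D4:**
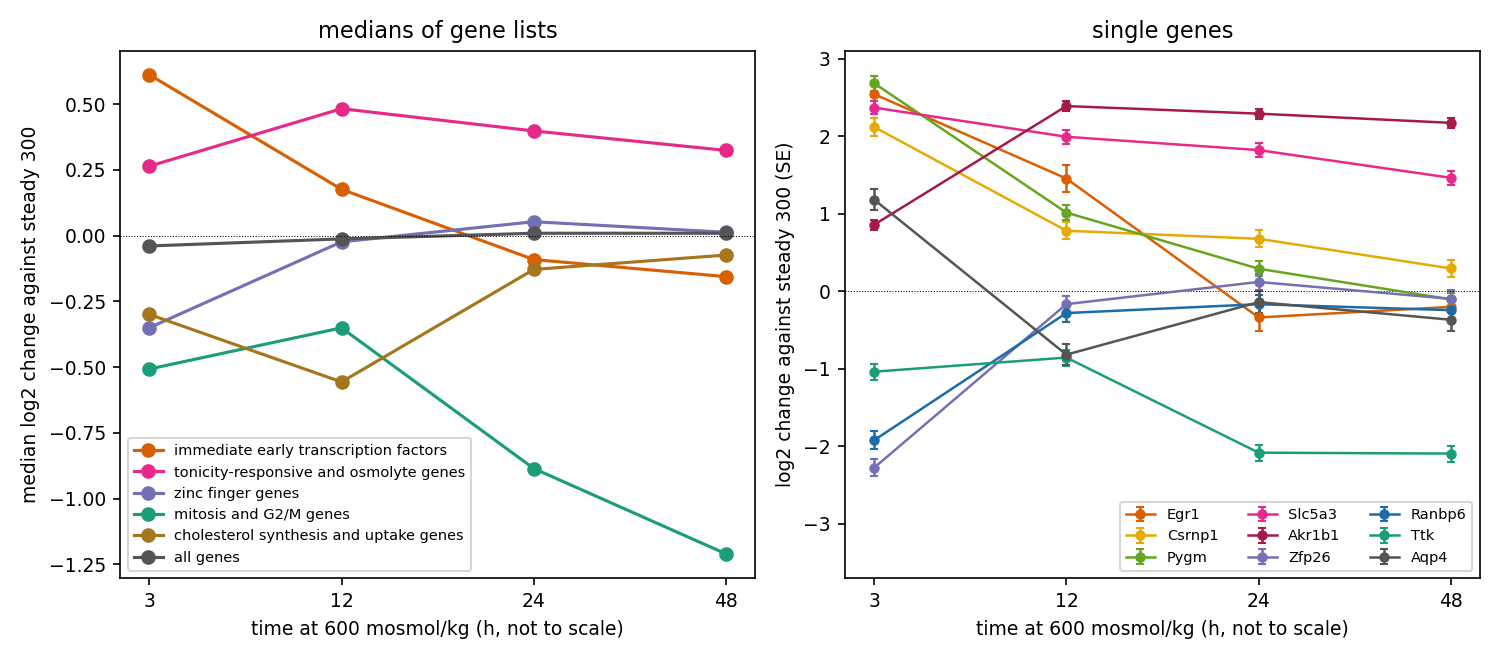
Log2 change over steady 300 (vertical axes) at 3, 12, 24 and 48 h after the step to 600 mosmol/kg (horizontal axes, not to scale), as medians of gene lists on the left and for 9 genes with their SE (n = 3 arrays per time) on the right. The immediate early median is 0.61 at 3 h and 0.18 at 12 h, the zinc finger median −0.35 and −0.02, and Akr1b1 is the gene whose change is larger at 12 h (2.39) than at 3 h (0.86). All points share the steady 300 arrays, and the SE rests on the spread pooled over all 30 arrays.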

How the data were processed

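Total RNA was measured on Affymetrix Rat Gene 1.0 ST arrays. The authors deposited log2 values made by RMA, per the submitters' processing notes. RMA as usually run corrects background, gives arrays like distributions and summarises probes. Its version is not given in the sources used here. Of 29170 probe sets, 15310 had 1 gene symbol in the platform annotation, and each of 14506 genes was represented by its brightest probe set. Levels of different genes were not compared, and with 3 arrays per group their number limits the precision.

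Groups followed the sample titles. All 10 groups were fitted together with limma 3.58.1 in R 4.3.3 (lmFit, eBayes), with Benjamini-Hochberg adjustment over 14506 genes and calls at 0.05. The fit was tested on simulated data, with the same spread per gene in all groups and no narrower range at 3 h. How the fit handles the wider spread and narrower range of the real 3 h arrays was not tested. The arrays compared share the replicate numbers 1, 2 and 3. Deviations of same-numbered arrays at 3 h and in steady 300 correlated at 0.0063, −0.0066 and −0.064, so the numbers were not taken as pairs. Alternatives were quantile normalization, cyclic loess, median centring, a filter on dim genes, averaged probe sets, array or group weights, eBayes with trend and robust, a fit of the compared arrays alone, a replicate block, a stricter threshold and each array left out.

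The comparison and the gene lists were chosen with earlier results of these data known, so lists are described by counts and medians without a test. Named genes were the 10 largest increases and decreases without overlap, the 3 largest in each brightness group, up to 4 members of each list in each direction by adjusted p, the 5 largest differences from 12 h in each direction, and 22 genes fixed by name. Promoters are from RefSeq.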

Additional observations from a re-analysis of the deposited data

Results flagged for a closer look

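Genes whose changes at 3 h and at 12 h over steady 300 passed the test in opposite directions, and whose difference between the times passed it too, are given here. In all genes there were 467, of which 135 were higher at 3 h and lower at 12 h and 332 the reverse, and 1 of them changed at least 2-fold at both times. Both comparisons share the steady 300 arrays, while the test of the difference compares the 3 h and 12 h arrays with each other. Among the 230 named genes there were 19.

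Of the 12 higher at 3 h and lower at 12 h, the difference was 2.41 for Ly6c, a surface antigen of leukocytes and endothelium, 2.04 for Fxyd4, 2.00 for Aqp4, 1.47 for Cldn16, a paracellular magnesium channel, and 1.36 for Plvap, a protein of endothelial diaphragms. It was 1.32 for Psmb10, an immunoproteasome subunit, 1.08 for Pdgfrb, 0.87 for Cdc6, 0.86 for Rnd3, 0.77 for Gys1, 0.67 for Nfil3, a repressor of the clock, and 0.66 for Fbln2. Ly6c had levels of 7.31, 7.46 and 7.48 at 3 h, against 6.58, 6.17 and 6.03 in steady 300, with changes of 1.16 ± 0.17 at 3 h and −1.25 ± 0.17 at 12 h.

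Of those lower at 3 h and higher at 12 h, the difference was −2.59 for Cd69, an early activation antigen of lymphocytes, −2.28 for Serpinb2, an inhibitor of plasminogen activators, −1.62 for Lpar1, −1.46 for Mdm2, −1.15 for Slc7a11, −1.03 for Chordc1, a co-chaperone of HSP90, and −0.75 for Clock. Cd69 changed by −0.89 ± 0.12 at 3 h and by 1.71 ± 0.12 at 12 h. The 3 h call of Plvap was lost without 3 h replicate 3 (0.45), as was that of Pdgfrb (0.18). That of Clock was lost without 3 h replicate 1 (−0.25) or 2 (−0.25) or steady 300 replicate 2 (−0.29). That of Psmb10 was lost without 3 h replicate 1 (0.24) or 2 (0.22) or any 1 steady 300 replicate (0.31 to 0.36). Fbln2 lost its call without 3 h replicate 1 (0.29) or 2 (0.30), or without steady 300 replicate 1 (0.25) or 2 (0.27). Chordc1 and Clock did not pass after quantile normalization (−0.23 and −0.17) or cyclic loess (−0.21 and −0.12).

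Outside the 14506 genes, 13537 probe sets have no gene in the annotation used here and took part in no comparison above. Tested together with all 29170 probe sets, 1800 of the 13537 were higher at 3 h and 1757 lower. In the fit above, 1759 of the 14506 genes were higher (12.1%) and 4282 lower (29.5%). At least 2-fold changes were found in 228 of these probe sets that were higher and 176 that were lower than in steady 300. Among the genes they were found in 66 (0.455%) and 214 (1.48%). As deposited, the excess of lower genes was thus not seen in these probe sets. They were not matched to the genes by brightness, and in the dimmest group of genes 14% were higher and 3.7% lower. With quantile normalization or cyclic loess over the 14506 genes alone, lower genes made up 50.4% and 52.1% of the calls. The part of brightness and scaling in this contrast was not tested.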

How the results depend on the processing

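The precision of 3 arrays per group limits these results, and weak changes of the many bright genes depended on the scaling. Of 230 named genes, 172 had the same call under each of 20 settings. Numbers 1 to 3 of the groups compared were not taken as pairs, and the labels do not settle this. With a replicate block and all groups 1814 genes were higher and 4338 lower. With a replicate block in only the compared arrays 1017 genes were higher, 407 of them in the dimmest group, 388 in the middle and 222 in the brightest. Without the block the compared arrays alone gave 1142 higher, 238 of them in the brightest group, and 1672 higher at 3 h than at 12 h. Group weights gave 1074 higher (319 dimmest, 408 middle), 105 lower in the dimmest group and 1717 higher at 3 h than at 12 h. An adjusted p under 0.01 gave 1008 higher (345 dimmest, 380 middle) and 108 lower in the dimmest group. Quantile normalization gave 360 higher and 270 lower in the dimmest group, and 897 and 1560 in the brightest. Cyclic loess gave 319 and 319 in the dimmest, 1018 and 1376 in the brightest, and 7 lower tRNA synthetases. Chosen after seeing the data, both scalings were also run over the 14506 genes alone, without the other probe sets. Quantile normalization of these genes gave 2644 higher and 2690 lower, with 103 at least 2-fold higher. It gave 339 and 275 in the dimmest group, 1228 higher in the middle, and 1077 and 1339 in the brightest. Lower were 7 cholesterol genes and 6 synthetases. Cyclic loess over the 14506 genes alone gave 2673 lower, and 100 and 139 at least 2-fold higher and lower. It gave 330 and 320 in the dimmest group, 1217 and 1155 in the brightest, and 4 lower cholesterol genes and 5 lower synthetases. There Ccn2 (0.0099) and Krt18 (0.0059) turned positive, from −0.23 and −0.22, and neither passed the test. The causes were not tested. With 1 array left out the counts were 1346 to 1795 higher and 3723 to 4547 lower, 65 to 72 and 179 to 267 at least 2-fold higher and lower, 18 to 20 immediate early genes higher, 18 to 22 mitosis genes lower and 88 to 94 zinc finger genes lower.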
